A study of Mus musculus with 66 samples.

Results

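The Eph receptors are the largest family of receptor tyrosine kinases, and 7 of their genes were followed here: Epha3, Epha4, Epha5, Epha6, Epha7, Ephb1 and Ephb2. They were taken by name, with the study's own naming of ephrin receptors in these libraries known, as 7 of the 21755 protein-coding genes of chromosomes 1 to 19 and X. For each gene, the islands of H3K9me3 and H3K36me3 over its GRCm38 body plus 100 kb on either side, called its window, were read from every library. An island is a stretch that the peak caller joined from 200 bp windows of high ChIP read density. The windows held 951 of 1225692 listed H3K9me3 islands and 662 of 806097 listed H3K36me3 islands.

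The libraries came from the prefrontal cortex of DBA/2J mice, an inbred strain, in adolescence. Males and females received water or ethanol by gavage, the ethanol at 4 g/kg from a 25% solution (w/v), on 8 days between postnatal day (PND) 29 and 42. The cortex was dissected 24 h after dosing ended. Cortices of 3 mice were pooled in every sample, so the spread between samples is one between pools, and there were 5 water and 6 ethanol pools per sex. Both marks and an input were taken from each of the 22 pools. The tissue holds neurons, glia and vessel cells together, so fewer marked cells and less mark per cell cannot be told apart.

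Eph receptors sit on the cell surface and bind ephrins, ligands that are themselves anchored in the membrane of a neighbouring cell. Receptors of the A class mainly bind ephrin-A ligands and those of the B class ephrin-B ligands, while Epha4 binds both. Contact signals into both cells, repels or guides growing axons and shapes dendritic spines and synapses. H3K9me3 marks heterochromatin and silenced repeats. H3K36me3 is laid down along the bodies of transcribed genes by a methyltransferase that travels with RNA polymerase II.

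Soft-masked repeats made up 94.9% of the listed H3K9me3 island length in these windows and 86.0% of the H3K36me3 length, though 45.9% at Ephb2 and 54.0% at Ephb1 for H3K36me3. The next 3 stretches of 300 bases show the kinds of sequence the islands covered (RefSeq GRCm38.p6, plus strand, CG in capitals). The first is the centre of the H3K9me3 region that reached a false discovery rate (FDR) of 0.01 in most libraries. A region here means positions under a listed island in at least 11 of the 22 libraries. It lies downstream of Epha3 at chr16:63442051-63442350, just past the window edge that the region (chr16:63440001-63444400) crosses. The second is the H3K36me3 region chosen by the same rule, in an Epha3 intron at chr16:63833551-63833850. The third, in an Ephb2 intron at chr4:136671551-136671850, is from the only region of that gene. It was chosen after its values were seen.
Epha3 H3K9me3: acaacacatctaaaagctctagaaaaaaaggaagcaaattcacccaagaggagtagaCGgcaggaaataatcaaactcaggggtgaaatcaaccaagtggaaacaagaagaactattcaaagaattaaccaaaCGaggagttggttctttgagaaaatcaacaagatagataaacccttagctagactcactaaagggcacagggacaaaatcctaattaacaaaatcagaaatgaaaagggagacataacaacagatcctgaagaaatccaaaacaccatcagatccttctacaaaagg
Epha3 H3K36me3: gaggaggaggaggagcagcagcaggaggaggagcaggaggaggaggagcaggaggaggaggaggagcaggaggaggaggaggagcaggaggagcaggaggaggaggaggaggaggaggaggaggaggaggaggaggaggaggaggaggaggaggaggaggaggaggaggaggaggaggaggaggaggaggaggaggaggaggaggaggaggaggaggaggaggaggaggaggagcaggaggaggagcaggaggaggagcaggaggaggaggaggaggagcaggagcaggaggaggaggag
Ephb2 H3K36me3: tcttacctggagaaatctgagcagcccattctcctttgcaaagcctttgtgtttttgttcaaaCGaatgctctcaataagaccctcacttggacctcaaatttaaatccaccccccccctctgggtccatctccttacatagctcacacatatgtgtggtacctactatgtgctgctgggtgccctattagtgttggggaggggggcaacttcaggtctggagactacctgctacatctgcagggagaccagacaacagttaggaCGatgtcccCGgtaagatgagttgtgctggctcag
The first and the second were 100% soft-masked as repeats and the third 0%. The Epha3 H3K36me3 stretch was a purine triplet repeat: 259 of its 298 triplets were gag, agg or gga, and its longest run held 46 copies of gag. It had 66.7% GC and 0 CG. The Ephb2 stretch shared no word of 24 bases, counting both strands, with either of the others and held 3 CG.

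Depth inside listed islands was 5661332 to 13950386 ChIP reads per H3K9me3 library and 1679317 to 4735302 per H3K36me3 library. Between 31.0 and 87.8% of the H3K9me3 islands of a library had an FDR of at most 0.01, against 7.77 to 72.9% of the H3K36me3 islands. The H3K9me3 library of male ethanol pool 4 stood apart as the deepest, and that of female water pool 2 by its share of islands at that FDR (31.0%, against 66.3% or more in the others). For H3K36me3, male ethanol pool 6 had the lowest share of islands at that FDR and male ethanol pool 4 the highest. All 20959 islands that had the same ends in both marks of a pool had equal input reads, so each pool used 1 input for both marks. In the lists given here, H3K36me3 coverage did not set genes of the labelled tissue apart from genes of other organs: the median coverage of gene bodies was 0.579% for 8 neuron markers, 0.546% for 5 astrocyte markers, 0.515% for 4 microglia markers, 2.47% for 3 endothelium markers and 1.08% for 6 genes of other organs. In the same order, 3, 1, 1, 2 and 3 of these genes had an island in at least 11 libraries, and 1, 1, 0, 1 and 2 had none in any library.

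H3K9me3 islands covered the windows of Epha3, Epha5, Epha6 and Epha7 most and those of Ephb1 and Ephb2 least, and A class against B class was not tested. Epha7, a receptor of cortical and thalamic wiring, had 5.86% ± 0.960 (SD, 22 libraries) of its window under listed islands. Epha6 had 4.87% ± 0.926. Epha5, which takes part in the topographic mapping of axons, had 3.84% ± 0.848, and Epha3, a receptor of ephrin-A5, had 3.07% ± 0.767. Epha4, a spine and axon repulsion receptor, had 1.33% ± 0.409. Ephb1, which guides retinal axons away from the midline, had 0.489% ± 0.271, with 2 libraries at 0. Ephb2, a partner of NMDA receptors at synapses, had no listed H3K9me3 island in any of the 22 libraries. The Ephb2 window overlapped 8 other protein-coding genes, among them Epha8, against 2 at Epha6, 1 at Ephb1 and 0 at the rest. Each gene in this order exceeded the next in 19, 20, 17, 22, 21 and 20 of 22 libraries, and the spreads of neighbours overlapped from Epha7 down to Epha3. Among all windows, whose median was 1.26%, these levels stood at percentiles 76.4, 73.3, 68.9, 64.8, 50.7 and 38.5. Ephb2 was among the 11.2% of windows with no coverage.

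H3K36me3 ran in the same order over a narrower range. Epha7 had 2.91% ± 0.693 of its window under listed islands, Epha6 2.46% ± 0.703, Epha5 2.4% ± 0.621 and Epha3 2.36% ± 0.634. Those 4 did not separate: each exceeded the next in 15, 12 and 11 of 22 libraries. Epha4 had 1.54% ± 0.914 with 3 libraries at 0, Ephb1 0.865% ± 0.492 with 1 at 0 and Ephb2 0.538% ± 0.490 with 6 at 0. The median window of the genome had 2.85%, and the members stood at percentiles 51.1, 42.2, 41.0, 40.1, 22.6, 9.32 and 4.58, from Epha7 to Ephb2. With islands at FDR 0.01 alone, Epha3 stood at percentile 49.2 and the other 6 between 5.94 and 27.3. 

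**Figure D1:**
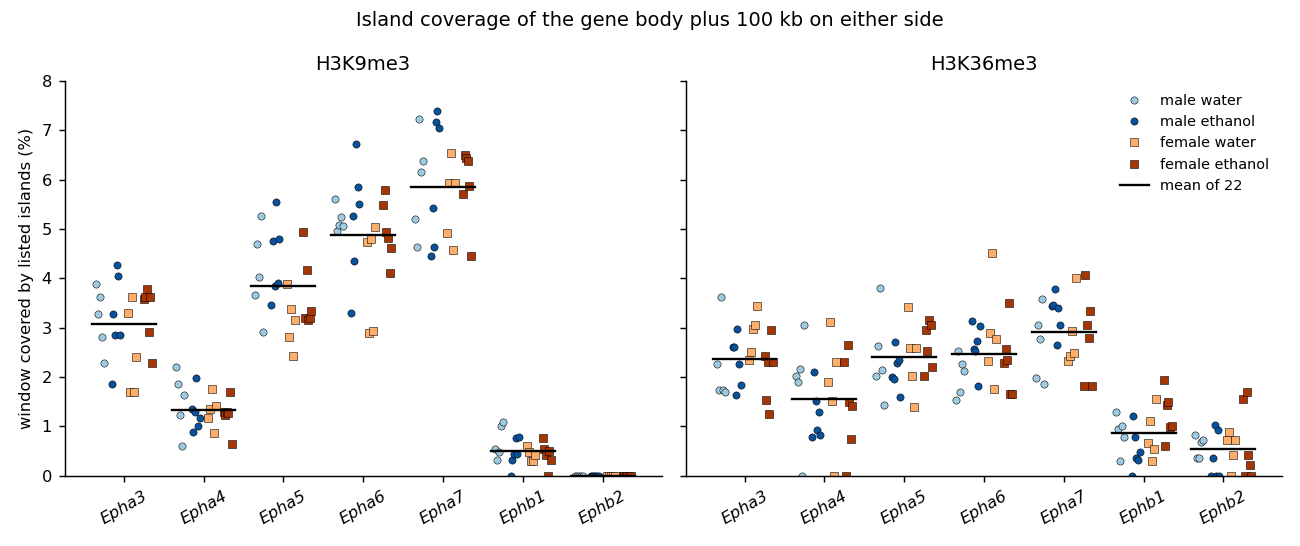
Percent of each window (gene body plus 100 kb on either side) under listed islands, 1 point per library, coloured by sex and treatment, with the mean of 22 libraries as a bar. For H3K9me3 the means fall from 5.86% at Epha7 to 0 at Ephb2, while for H3K36me3 Epha3, Epha5, Epha6 and Epha7 lie between 2.36 and 2.91%.

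Comparing the marks within a pool, H3K36me3 coverage was below H3K9me3 coverage at 4 genes, with differences of -2.95 percentage points at Epha7 (SE 0.262), -2.41 at Epha6 (SE 0.274), -1.44 at Epha5 (SE 0.249) and -0.71 at Epha3 (SE 0.230). It was above at Ephb2 by 0.54 points (SE 0.151) and at Ephb1 by 0.38 (SE 0.159). These 6 had adjusted p of at most 0.0319 (limma). Epha4 differed by 0.22 points (SE 0.210, adjusted p = 0.340). Such differences were common, since 82.7% of 21681 windows passed, with 50% higher and 32.7% lower for H3K36me3. The Ephb1 difference had adjusted p over 0.05 without male ethanol pool 2, female water pool 5 or female ethanol pool 1, 3 or 4, at 0.32 to 0.35 points, and with islands at FDR 0.01 alone (0.19 points). With those islands the difference widened at Epha5, to a mean coverage of 0.590% for H3K36me3 and 3.09% for H3K9me3. It narrowed at Ephb2, to 0.309% and 0%. Over the gene body alone Epha3 turned to 0.14 points and Epha5 shrank to -0.01. Epha7 had no listed island of either mark in its body, so its difference could not be compared there. The H3K9me3 lists joined windows across gaps of up to 400 bp and the H3K36me3 lists up to 600 bp. With H3K9me3 islands joined across 600 bp as well, a setting chosen after the data were seen, the differences were -2.99 points at Epha7, -2.46 at Epha6, -1.47 at Epha5, -0.73 at Epha3, 0.22 at Epha4, 0.38 at Ephb1 and 0.54 at Ephb2, and the same 6 passed.

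Inside listed islands, mean ChIP reads exceeded scaled input modestly in both marks. Islands were called by ChIP read density, so the ratio inside them is not independent of the calling. The mean ratio of ChIP to input reads in listed islands, divided by the constant of the library, was 1.41 at Epha7, 1.39 at Epha5 and Epha6, 1.36 at Epha3, 1.23 at Epha4 and 1.18 at Ephb1 (20 libraries) for H3K9me3. For H3K36me3 it was 1.80 at Ephb2 (16 libraries with an island), 1.49 at Ephb1 (21 libraries, where the median of 1.34 was below the 1.42 of Epha3), 1.42 at Epha3, 1.38 at Epha4 (19 libraries), 1.24 at Epha6, 1.2 at Epha5 and 1.19 at Epha7. Single libraries ranged from 0.799 at Epha3 to 1.87 at Ephb1 for H3K9me3, and from 0.856 at Epha5 to 3.21 at Ephb1 for H3K36me3. Of the listed islands in the windows, 626 of 951 (65.8%) had an FDR of at most 0.01 for H3K9me3 and 262 of 662 (39.6%) for H3K36me3.

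Where islands lay differed by gene. Epha6 (chr16:59653483-60605531, minus strand) has the longest body of the 7, 952 kb, which makes up 82.6% of its window and held 91.7% of its H3K9me3 island length and 96.1% of its H3K36me3 island length. Epha7 (chr4:28813131-28967499, plus strand) was the reverse: its 154 kb body held no listed island of either mark in any library, and its islands lay in both flanks. Epha4 (chr1:77367185-77515088, minus strand) had no H3K9me3 island in its body and 96.3% of the length upstream. Epha3 (chr16:63543534-63864175) and Epha5 (chr5:84054761-84417382), both on the minus strand, held 32.7% and 27.7% of their H3K9me3 island length in the body. Ephb1 (chr9:101922128-102354693, minus strand) had 84.7% of its little H3K9me3 upstream and 60.6% of its H3K36me3 in the body, and Ephb2 (chr4:136647539-136835988, minus strand) had 88.3% of its H3K36me3 in the body.

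H3K9me3 coverage of the body exceeded that of the flanks at Epha6 by 3.09 percentage points (SE 0.221, limma adjusted p = 4.27e-12). It was below the flanks elsewhere, with differences of -10.4 points at Epha7, -6.16 at Epha5, -3.75 at Epha3, -2.31 at Epha4 and -1.20 at Ephb1 and adjusted p of at most 1.54e-09. Of 16583 genes tested, 91.8% passed, 10.4% higher and 81.4% lower in the body. For H3K36me3 the body exceeded the flanks at Epha6 by 2.32 points (SE 0.301) and at Ephb2 by 0.86 (SE 0.227), and was below at the next 4, with differences of -5.16 at Epha7, -2.13 at Epha5, -2.12 at Epha4 and -1.55 at Epha3 and adjusted p of at most 0.00167. Of 21557 genes 76.1% passed, 15.1% higher and 61% lower. Ephb1 differed by -0.31 points (adjusted p = 0.268). Epha5 turned with flanks of 50 kb, to 0.06 points for H3K9me3 (adjusted p = 0.870) and 1.5 points for H3K36me3 (adjusted p = 4.4e-06). Under the same flanks Epha7 had -0.56 points for H3K36me3 (adjusted p = 0.0901) and -1.38 for H3K9me3 (limma adjusted p = 0.00197). For H3K9me3 these flanks also gave -2.31 points at Epha3, -2.37 at Ephb1 and 4.64 at Epha6, which passed, and Epha4 was not tested because fewer than 5 libraries had an island there. With islands at FDR 0.01 alone, the differences of Epha6 (0.47 points, adjusted p = 0.0526) and Epha5 (-0.24 points, adjusted p = 0.502) for H3K36me3 and of Ephb1 for H3K9me3 (-0.17 points, adjusted p = 0.1) no longer passed.

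No H3K9me3 island touched an exon of any member. For H3K36me3 the share of island length in exons was 2.24% at Epha4, 1.56% at Epha5, 0.296% at Ephb2 and 0.135% at Ephb1, and 0% at the other 3. No island of either mark came within 1 kb of a member's start site in any library. RefSeq promoter windows of 300 bases were found for all 7 genes, Epha7 with 2 entries. They held 14 to 30 CG at 55.7 to 68.7% GC and no listed island, and the nearest one was 6.06 kb (Ephb1, H3K9me3) to 220 kb (Ephb2, H3K9me3) away.

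**Figure D2:**
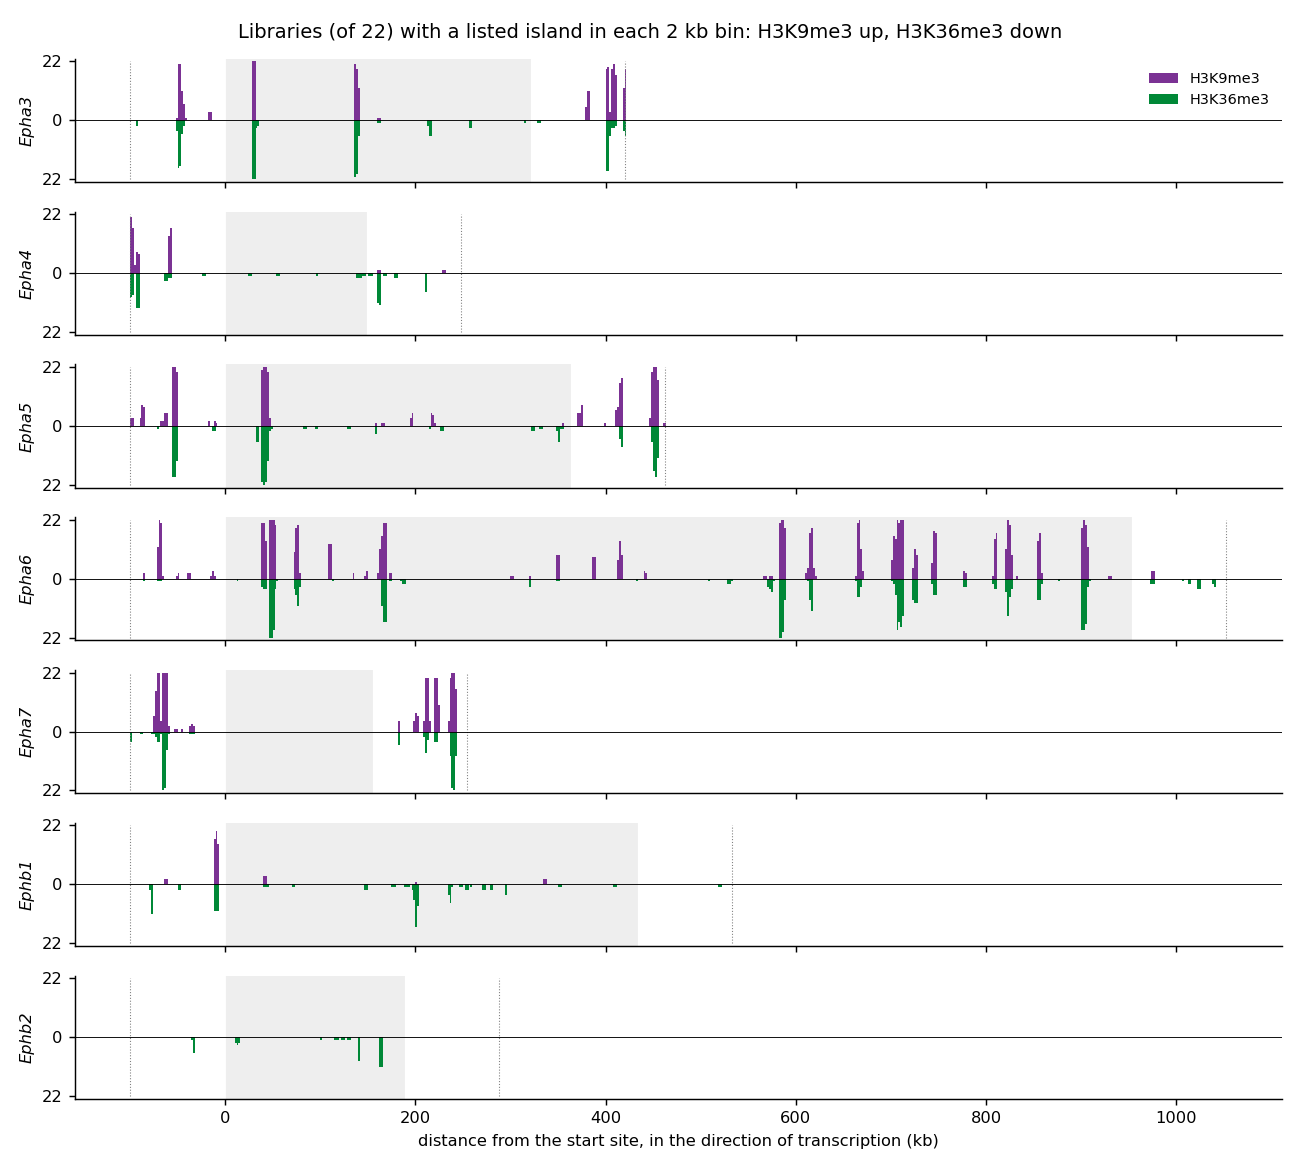
Number of the 22 libraries with a listed island in each 2 kb bin against distance from the start site (kb, in the direction of transcription), H3K9me3 upward and H3K36me3 downward, with the gene body shaded and the window ends dotted. The Epha7 body is empty for both marks, Epha6 islands recur along its 952 kb body, and Ephb2 has H3K36me3 only.

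The islands recurred at the same places in many libraries: 40 H3K9me3 regions and 22 H3K36me3 regions were under islands of at least 11 libraries. Epha6 had 20 and 8 of them, Epha3 7 and 4, Epha5 5 and 3, Epha7 5 and 2, Epha4 2 and 2, Ephb1 1 and 2 and Ephb2 0 and 1. The Epha3 H3K9me3 region printed first was at FDR 0.01 in all 22 libraries, with a mean fold over input of 1.49. The leading H3K9me3 regions of Epha5 (chr5:84372201-84377400, intron), Epha6 (chr16:59699001-59704000, intron) and Epha7 (chr4:29049801-29055200, downstream) were at that FDR in 20 libraries each. Those of Epha4 (chr1:77612801-77616000) and Ephb1 (chr9:102362201-102364800), both upstream, were at that FDR in 7 and 4.

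For H3K36me3, the Epha3 triplet repeat (chr16:63832801-63834600) was listed in 22 libraries and at FDR 0.01 in 15. Its fold over input ran from 0.608 to 2.55. An H3K9me3 region with the same ends was also listed in 22 libraries, at FDR 0.01 in 7, with a fold of 0.547 to 1.91. The leading region of Epha6 (chr16:59700801-59703800) reached that FDR in 12 libraries and that of Ephb2 (chr4:136671201-136672200) in 8. Those of Epha4 (chr1:77605801-77607600) and Epha7 (chr4:28747401-28750800) did so in 7 each, and those of Epha5 (chr5:84373001-84377400) and Ephb1 (chr9:102152801-102154200) in 6 each. The Ephb2 region had the highest mean fold over input of these, 2.03, with 23.8 to 40.6 ChIP reads against 11.7 to 25.6 input reads in the 11 libraries that listed it.

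Both marks shared much of their ground. Of the H3K36me3 island length in a pool, the mean share under an H3K9me3 island of the same pool was 85.3% ± 13.6 at Epha7, 81.2% ± 16.1 at Epha5, 74.5% ± 13.1 at Epha6 and 70.4% ± 14.4 at Epha3 (SD, 22 pools), against 66.8% ± 7.66 over the whole genome. H3K9me3 islands covered 6.60% of the genome. The share was 27.1% ± 25.9 at Epha4 (19 pools), 19.6% ± 28.5 at Ephb1 (21 pools) and 0 at Ephb2 (16 pools). All 17 H3K36me3 regions of Epha3, Epha5, Epha6 and Epha7 overlapped an H3K9me3 region, and none of the 5 of Epha4, Ephb1 and Ephb2 did. With islands at FDR 0.01 alone the shares were 70.9% at Epha7, 57.1% at Epha6, 48.4% at Epha5, 38.0% at Epha3, 11.5% at Epha4 and 0 at Ephb1 and Ephb2, and 48.5% over the genome. Both marks of a pool were called against the same input and joined across the different gaps given above, and the part of either in the overlap was not tested.

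Repeats filled the shared regions. Soft-masked bases made up 29.5% of the 7 windows, 97.8% of their H3K9me3 regions and 92.7% of their H3K36me3 regions, near the 89.6% and 87.8% of the 52072 and 30933 regions of the genome. By gene, H3K36me3 regions were 98.0 to 100% repeat at Epha3, Epha5, Epha6 and Epha7, 54.4% at Epha4, 46.6% at Ephb1 and 16.1% at Ephb2. The windows themselves held 19.4% repeats at Ephb1, 23.5% at Ephb2, 24.8% at Epha4, 29.5% at Epha3, 31.3% at Epha7, 34.9% at Epha5 and 35.4% at Epha6. The 4 windows with most repeats were also the 4 with most H3K9me3 coverage, and the part of repeat content in that coverage was not tested.

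Repeats of like sequence recurred in the regions of Epha3, Epha5, Epha6 and Epha7. Of the words of 24 bases in its H3K9me3 regions, Epha3 shared 64.4% with H3K9me3 regions of other members, Epha5 48.0%, Epha7 47.4%, Epha6 29.8%, Epha4 13.4% and Ephb1 12%. The other repeat sequence of the same windows shared 8.44% at Epha3 and 1.89 to 3.51% at the rest. Between single regions, the leading H3K9me3 regions of Epha5 and Epha3 shared 92.4% of the words of the shorter, and the 6 pairs among Epha3, Epha5, Epha6 and Epha7 shared 53.3 to 92.4%, while the 9 pairs with Epha4 or Ephb1 shared 1.55 to 3.15%. The leading H3K36me3 regions of Epha7 and Epha6 shared 72.8%, those of Epha5 and Epha6 60.6% and those of Epha7 and Epha5 53.1%, while all pairs with the Epha3 triplet repeat or with Epha4, Ephb1 or Ephb2 shared 0%. Reads kept for mapping to a single place must span at least 1 base at which such copies differ, and the part of this in the levels was not tested.

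**Figure D3:**
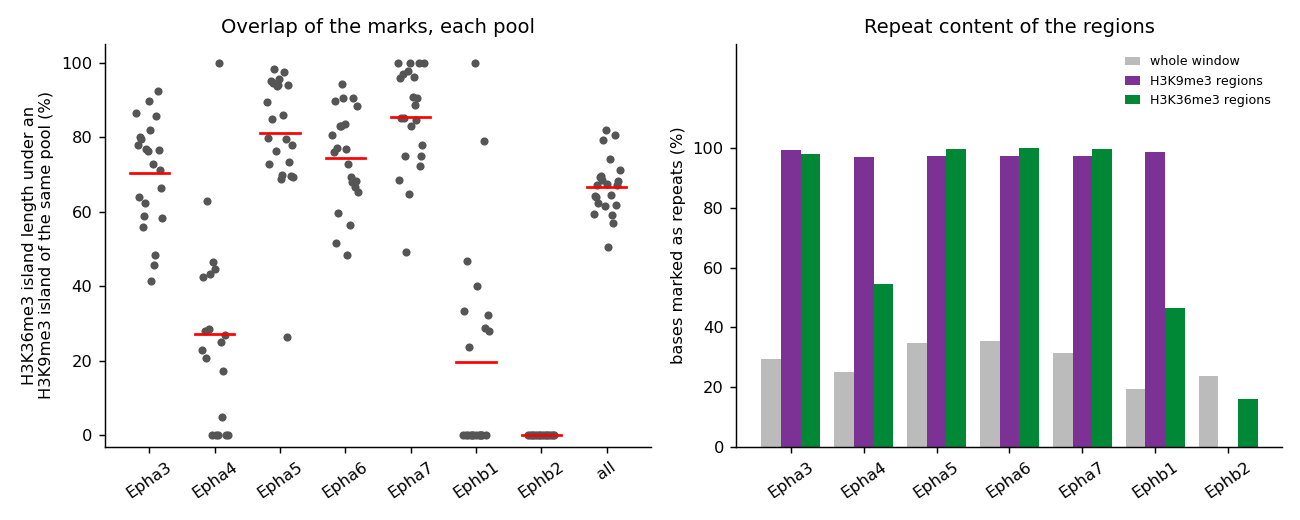
Left, percent of H3K36me3 island length that lies under an H3K9me3 island of the same pool, 1 point per pool with the mean as a red bar, for each gene and for the whole genome (all). Right, percent of bases soft-masked as repeats in the window and in the regions of each mark, where Epha4, Ephb1 and Ephb2 have 16.1 to 54.4% in H3K36me3 regions and the other genes 98.0 to 100%.

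Ethanol was compared with water in each sex on the ChIP reads of the islands in each window. Pool values are given as RPM, the reads scaled to 1 common total of reads in listed islands for every library. The log2 fold changes are from the edgeR fit, which also applied TMM factors (trimmed mean of M-values), so they are not ratios of mean RPM. H3K9me3 levels over the members in males overlapped between the treatments at every gene. At Epha6 the water pools had 277, 287, 292, 292 and 298 RPM and the ethanol pools from 223 to 307 with a median of 289. At Epha5 the water pools had 83.2, 99.9, 106, 130 and 146 RPM and the ethanol pools 104 to 128 with a median of 122. None of the 6 members tested passed an unadjusted p of 0.05, against 2.63% of 14860 windows (1.81% higher and 0.821% lower, edgeR quasi-likelihood test), with log2 fold changes from -0.50 (SE 0.743) at Ephb1 to 0.08 (SE 0.124) at Epha5. Ephb2 had no reads to test.

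In females, Epha6 H3K9me3 was slightly higher after ethanol. The water pools had 199, 218, 225, 248 and 252 RPM and the ethanol pools from 225 to 276 with a median of 250. The groups overlapped, with means of 228 ± 22.1 in water and 253 ± 18.97 in ethanol (SD). The log2 fold change was 0.15 (SE 0.071, edgeR adjusted p = 1.00), and Epha6 was the 1 of 6 members at an unadjusted p of 0.05, against 4.27% of 14888 windows, 2.7% higher and 1.57% lower. Of the windows that passed, 402 of 636 were higher, against 868 of 936 with percent of the window covered. Female water pool 2, with the lowest share of islands at FDR 0.01, had 218 RPM and the smallest Epha6 island length of the female pools, 33.4 kb, beside 33.8 kb in water pool 4 and 47.4 to 66.8 kb in the others. Without it the log2 fold change was 0.13 and did not pass. The part of library quality in this change was not tested beyond these values. The change did not pass in most settings. It was 0.12 to 0.16 without female water pool 2, 3 or 4 or without female ethanol pool 1, 2, 3, 4 or 6, 0.05 for the ratio of ChIP to input reads and 0.15 without TMM factors. Epha3 had 58.5, 59.8, 74.5, 86.7 and 93.7 RPM in water and 66.8 to 102 with a median of 93.6 in ethanol, a change of 0.28 log2 (SE 0.141, edgeR adjusted p = 1.00). The other 4 had log2 fold changes between -0.26 at Ephb1 and 0.10 at Epha5.

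Within Epha6, 2 of the 21 H3K9me3 regions of the members that could be tested passed the unadjusted threshold in females, against 3.98% of 27169 regions. An intron region had 11.9, 13.4, 16.4, 16.4 and 18.8 RPM in water and 17.4 to 22.6 with a median of 19.2 in ethanol. Only 1 water pool lay inside the ethanol range. The log2 fold change was 0.41 (SE 0.153, edgeR adjusted p = 0.999), and it was 0.32 to 0.52 when any 1 library was left out, with p at or under 0.05 each time. The region at chr16:60437001-60439800 had 4.39, 6.14, 8.93, 10.5 and 11.5 RPM in water and 9.94 to 12.9 with a median of 10.8 in ethanol. It changed by 0.47 log2 (SE 0.211, edgeR adjusted p = 0.999) and did not pass without female water pool 2, 4 or 5 or female ethanol pool 1, 2, 3, 4 or 5 (0.31 to 0.49). Input reads were also higher in ethanol females, with means of 97.6 against 80.1 at the first region and 61.9 against 47.5 at the second. Mean fold over input was 1.54 ± 0.211 in ethanol and 1.26 ± 0.302 in water at the first. At the second it was 1.35 ± 0.136 and 1.16 ± 0.187. In males, 0 of 21 regions passed, against 2.91% of 27626, and the first of these regions had means of 20.7 ± 2.47 RPM in ethanol and 21.9 ± 1.47 in water.

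H3K36me3 at Epha6 was higher in ethanol than in water males by the scaled fit. The water pools had 151, 157, 192, 208 and 246 RPM and the ethanol pools from 156 to 344 with a median of 259. Of the ethanol pools 3 lay above every water pool, at 302, 316 and 344, and the others within the water range. The log2 fold change was 0.67 (SE 0.272, edgeR adjusted p = 0.469). Epha7 had 63.0, 65.2, 83.7, 90.1 and 109 RPM in water and 94.1 to 111 with a median of 100.8 in ethanol, with only 1 water pool inside the ethanol range. Its log2 fold change was 0.55 (SE 0.248, edgeR adjusted p = 0.498). They were 2 of 7 members at the unadjusted threshold, both higher, against 9.81% of 20495 windows, 7.77% higher and 2.04% lower. Without TMM factors 144 windows passed and 16 of them were higher. The median log2 change of all windows was -0.31 in this fit and -0.43 without TMM factors.

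Both values moved with the scaling and with single libraries. Without TMM factors, the scaling of the RPM values above, Epha6 had 0.29 and Epha7 0.29 and neither passed. Nor did either pass with the ratio of ChIP to input reads, which changed by 0.09 and 0.14. DESeq2 gave 0.86 and 0.71 with adjusted p of 0.0374 and 0.0496, where 1466 of 20495 windows passed after adjustment. Epha6 did not pass without male water pool 1, 3 or 5 or male ethanol pool 1, 4 or 6 (0.55 to 0.66), nor did Epha7 without male water pool 1, 2, 3 or 5 or male ethanol pool 1, 2, 3, 4 or 6 (0.45 to 0.58). Without male ethanol pools 4 and 6, the 2 libraries at the ends of the FDR share, Epha6 had 0.35 and Epha7 0.40 and neither passed, a setting chosen after the data were seen. The part of library quality in these changes was not tested beyond these values. In regions, 0 of 7 members' H3K36me3 regions passed in males, against 5.71% of 7472.

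The B-class genes and Epha4 had lower means in ethanol males, within wide spreads. Ephb2 had 12.6, 14.4, 29.4, 30.0 and 38.2 RPM in water and 0 to 32.3 with a median of 5.81 in ethanol, where 3 pools had no island. Ephb1 had 18.95, 42.1, 43.7, 52.3 and 89.0 RPM in water and 0 to 50.05 with a median of 22.8 in ethanol. Epha4 had 0, 51.7, 60.5, 70.9 and 79.2 RPM in water and 19.7 to 56.6 with a median of 33.2 in ethanol. None passed, with log2 fold changes of -1.14 (SE 1.59), -0.69 (SE 0.956) and -0.39 (SE 0.941).

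In females no member's H3K36me3 reads passed, against 1.1% of 21066 windows (0.351% higher and 0.745% lower). Of the windows that passed, 74 of 231 were higher, against 5 of 466 without TMM factors, 194 of 432 with DESeq2 and 687 of 1089 with the ratio of ChIP to input reads. Ephb1 came nearest, with 14.9, 24.3, 43.9, 59.6 and 71.7 RPM in water and 31.0 to 98.3 with a median of 68.9 in ethanol (log2 fold change 0.79, SE 0.415, edgeR adjusted p = 1.00). The other log2 fold changes lay between -0.19 at Epha3 and 0.21 at Ephb2. In regions 0 of 7 passed, against 3.57% of 8997.

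**Figure D4:**
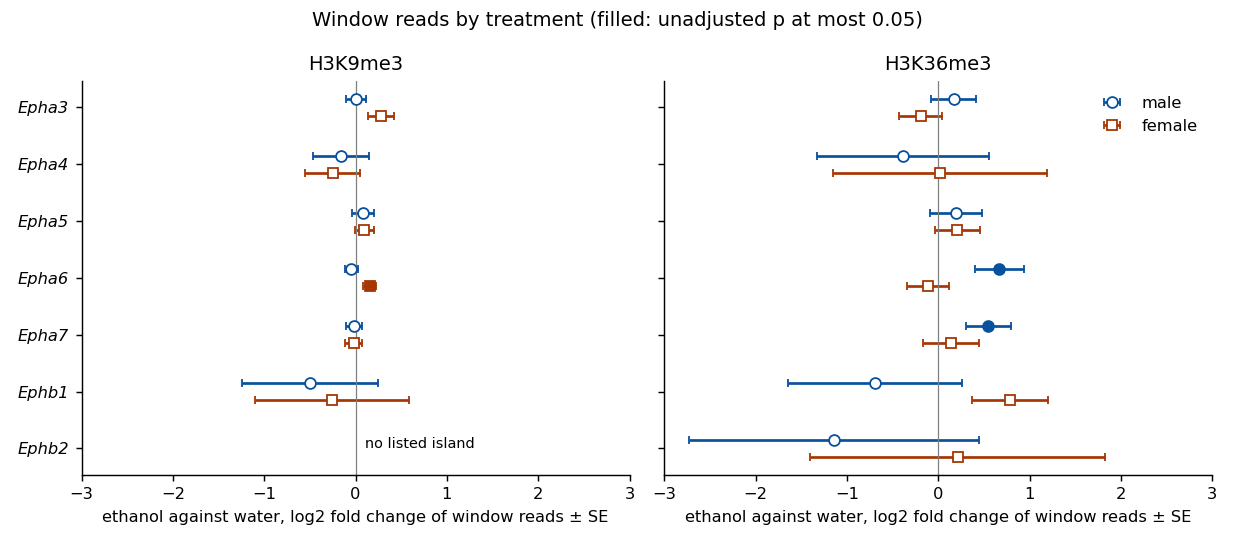
Log2 fold change of window reads, ethanol against water, with its SE, by gene, mark and sex from the edgeR fit; filled symbols have an unadjusted p at most 0.05. Those are Epha6 H3K9me3 in females (0.15) and Epha6 (0.67) and Epha7 (0.55) H3K36me3 in males.

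Islands gained or lost outright were compared by presence. One H3K36me3 island, upstream of Epha4 at chr1:77605801-77609000, was listed in 4 of 5 water males and 0 of 6 ethanol males (exact two-sided Fisher's test p = 0.0152, adjusted p = 0.683). It held 43, 55, 92 and 94 ChIP reads in the water pools that listed it, against 41, 55, 49 and 88 input reads, and its FDR was at most 0.01 in 2 of them. It was 1 of 26 islands of the members tested in males, against 1.99% of 27850 genome-wide, and with islands at FDR 0.01 alone 0 of 19 passed in males, against 2.25%, and 2 of 18 in females, against 1.24%. Where a library had to cover at least 50% of the merged island to list it, 1 of 22 passed in males, against 1.42%, and 1 of 27 in females, against 0.66%. In females the same island was listed in 5 of 6 ethanol and 4 of 5 water pools. An H3K9me3 island at nearly the same place (chr1:77605601-77608800) was listed in 4 of 5 water and 1 of 6 ethanol males (Fisher's test p = 0.0801). In females that H3K9me3 island was listed in 1 of 5 water and 2 of 6 ethanol pools. No member island passed for H3K36me3 in females (of 27, against 0.506% of 31029), nor for H3K9me3 in males (of 16, against 0.69% of 18836) or in females (of 13, against 1.46% of 21240).

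The sex difference of the ethanol effect was tested as an interaction, female minus male. For H3K9me3 Epha6 differed by 0.21 log2 (SE 0.098, edgeR adjusted p = 1.00), 1 of 6 members against 4.73% of 16566 windows (2.38% higher and 2.35% lower). For H3K36me3 Epha6 differed the other way, by -0.77 (SE 0.363, edgeR adjusted p = 1.00), 1 of 7 members against 2.76% of 21552 windows (0.998% higher and 1.76% lower). The H3K36me3 levels of females were 206, 207, 208, 209 and 337 RPM in water and 180 to 274 with a median of 190 in ethanol. The H3K9me3 difference did not pass without male water pool 1, 3, 4 or 5, male ethanol pool 1 or 3, female water pool 2, 3 or 4 or female ethanol pool 1, 2 or 6 (0.14 to 0.21). The H3K36me3 difference did not pass without male water pool 1, 3 or 5, male ethanol pool 1, 4 or 6, female water pool 1 or 3 or female ethanol pool 1, 3, 5 or 6 (-0.54 to -0.79). With the ratio of ChIP to input reads the differences were 0.07 and -0.04 and neither passed. The largest of the remaining differences was 1.48 (SE 1.01) at Ephb1 for H3K36me3.

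**Figure D5:**
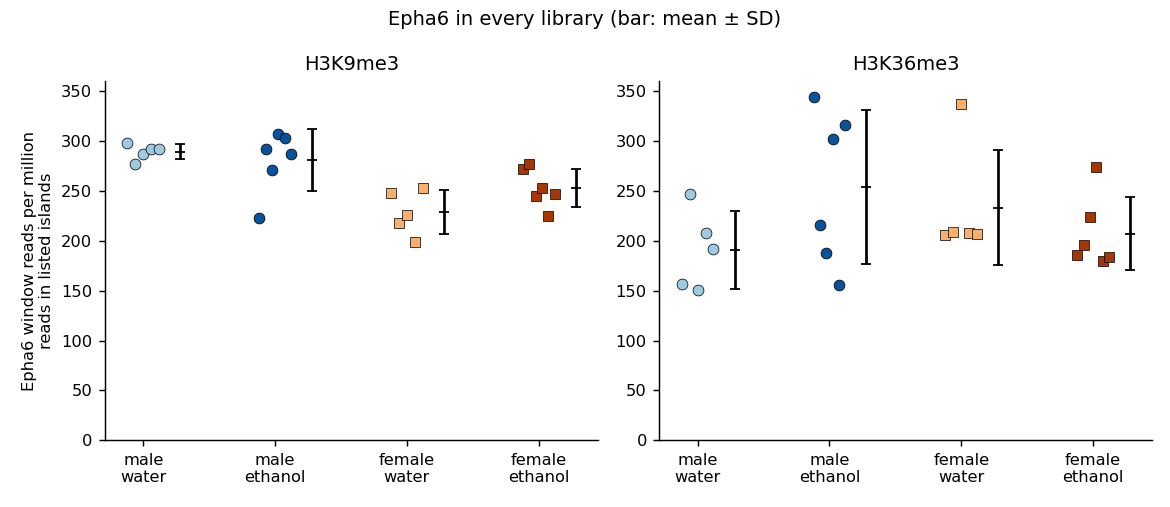
RPM in listed islands over the Epha6 window in every library, 1 point per pool, with the mean and SD of each group beside the points. For H3K9me3 water males average 289 and water females 228, and for H3K36me3 the ethanol males spread from 156 to 344.

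The rest of the pathway was read in the same windows from lists of 7 other Eph receptors, 8 ephrin ligands and 18 intracellular effectors. Their median H3K9me3 coverage was low, 0.244% for the other receptors, 0.0121% for the ligands and 0.635% for the effectors, but single genes reached the level of the members: Rasa1 had 9.17% ± 2.25 (SD, 22 libraries), above Epha7, Vav3 4.08%, Nck2 3.25% and Epha1 2.41%. Efna1, Efna2, Efna3 and Efna4 had no island in any library. H3K36me3 medians were 0.786, 2.07 and 1.83%. By treatment 0 of the listed genes that could be tested passed for H3K9me3, of 18 in males, against 2.63% of windows, and of 18 in females, against 4.27%. For H3K36me3 in males 2 of 17 effectors passed, both higher, near the 9.81% of all windows (7.77% higher): Vav3, an exchange factor that Eph receptors recruit, by 0.93 log2 (SE 0.221, edgeR adjusted p = 0.447) and Rasa1, a Ras GTPase-activating protein, by 0.66 (SE 0.191, edgeR adjusted p = 0.447). Without TMM factors neither passed, with 0.61 at Vav3 and 0.50 at Rasa1. With the ratio of ChIP to input reads Vav3 changed by 0.26, which passed, and Rasa1 by 0.18, which did not. Neither passed with islands at FDR 0.01 alone (0.95 and 1.65) or with percent of the window covered (1.37 and 2.01 points). Both passed with DESeq2 (1.11 and 0.83), where 18.1% of all windows passed. Both also passed with the replicate number as a block (0.85 and 0.66) and without the low-count filter (0.93 and 0.66). Over the gene body alone Vav3 passed (1.01). None of 6 receptors and 7 ligands passed in males, and none of 6, 8 and 17 in females. With percent of the window covered, Epha10 passed for H3K36me3 in males (-3.74 points), against 20.4% of 20504 windows. The medians of the lists in males were -0.78, -1.62 and -0.59 log2, against -0.31 for all windows. Vav3 also differed between the sexes, by -0.86 (SE 0.323, edgeR adjusted p = 1.00), as 1 of 18 effectors against 2.76% of windows, and by -0.81 without TMM factors, which did not pass. Nor did it pass with the ratio of ChIP to input reads (-0.08), islands at FDR 0.01 alone (-1.02), percent of the window covered (-1.38 points) or the gene body alone (-0.80). For the H3K9me3 sex difference 1 of 4 receptors tested passed, Epha10, against 4.73% of windows. Its islands were listed in 6 of 22 libraries, so its fitted difference of -8.28 log2 is no measure of size, and it did not pass with percent of the window covered or with the replicate number as a block. In females Epha10 entered the test, and passed, without the low-count filter only.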

How the data were processed

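ChIP-seq of H3K9me3 and H3K36me3 was read from the deposited island lists of 44 libraries (22 pools, 66 samples with the inputs). Per the labels and the study's methods, which describe H3K9me3, the DNA of 8 technical precipitations was combined, reads were trimmed with cutadapt, aligned to GRCm38/mm10 with Bowtie2 2.4.1 and kept where they mapped to a single place outside blacklisted regions, and SICER called islands in 200 bp windows per library. The smallest distance between islands was 600 bp in every H3K9me3 list and 800 bp in every H3K36me3 list, so gaps of up to 400 and 600 bp were joined. Reads of copies that cannot be told apart are lost where only reads of a single place are kept. The aligner for H3K36me3 is not given in the sources used here. The deposited count of ChIP reads and of input reads per island was whole and not normalized. The authors' p-value and FDR per island compared ChIP with scaled input reads, and the lists were not cut at an FDR. The authors' fold was a ratio, ChIP over input, scaled by 1 constant in each library.

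Island reads were summed over the body plus 100 kb on either side (GENCODE vM21, protein-coding genes), by overlapped share, rounded, filtered with filterByExpr, scaled by TMM (trimmed mean of M-values) to the reads in listed islands, and tested per sex with the quasi-likelihood test of edgeR 4.0.16, with Benjamini-Hochberg adjustment over all windows and the study's unadjusted threshold of 0.05. Coverage differences, paired by pool, were tested with limma 3.58.1, and presence in 3 or more and absence from 3 or more libraries of a sex with Fisher's exact test. The marks were paired by pool because both came from 1 homogenate of the same mice. Regions needed 11 libraries, 200 bp and, for a test, an island in all 11 libraries of the sex. DESeq2 1.42.0 was one alternative. Scripts were tested on simulated data. Reads outside islands were not analysed here, so library depth is known only inside islands. Repeats are the soft-masked bases of the RefSeq genome. P-values measure the spread between pools.

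All 7 genes were named throughout. Regions and islands were named by up to 3 smallest p at or under 0.05 per mark and sex and by FDR 0.01 in most libraries, and listed genes by up to 2 smallest p. The members and lists were chosen with earlier results of these data known, and the study named ephrin receptors from these same libraries, so the list is not independent evidence. Markers of neurons, astrocytes, microglia, endothelium and other organs were read by H3K36me3 coverage. One marker list and 1 region's sequence are not reported here.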

Additional observations from a re-analysis of the deposited data

Results flagged for a closer look

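In 50 groups of members' RPM values, 3 had a library far from the rest, and chance gives about 1 in 20. At Epha5, H3K9me3 in male ethanol pool 5 was 103.7 RPM, below the 120.0 to 127.5 RPM of the other ethanol males. At Epha5, H3K9me3 in female ethanol pool 1 was 124.1 RPM, above the 84.6 to 99.0 RPM of the other ethanol females. At Epha6, H3K36me3 in female water pool 3 was 336.8 RPM, above the 206.2 to 208.5 RPM of the other water females.

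The ethanol effect differed between the sexes at Epha6 for both marks at the unadjusted threshold, by 0.21 log2 (female minus male, edgeR adjusted p = 1.00) for H3K9me3 and by -0.77 log2 (edgeR adjusted p = 1.00) for H3K36me3. The second value includes the water female pool that stood apart, and without it the difference was -0.54 and did not pass.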

How the results depend on the processing

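Of 374 values of the members under alternatives other than leaving out a library, 273 kept their direction and side of the threshold, 40 lost it, 3 gained it and 58 changed sign, 3 of these from a value past its threshold. With 1 library left out, 908 of 1034 were kept, 60 lost, 4 gained and 62 changed sign, none of the last from a value past its threshold. Where a value changed, the cause was not tested. Epha4, Ephb1 and Ephb2 each had no H3K36me3 island in 1 or more libraries, and for Ephb2 these included female water pool 3, the library with the most listed H3K36me3 length. Values below are log2 fold changes of window reads unless named otherwise, and counts are of features at their threshold.

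With DESeq2, 3701 windows passed for H3K36me3 in males (2010 before) and 432 in females (231 before), and the sex difference at Epha5 was -0.047. Without TMM factors, H3K36me3 counts were 144 windows in males, 466 in females, 259 for the sex difference (594 before) and 15 regions in males (427 before). The same setting gave -0.16 at Epha3 and -0.062 at Epha5 in males, -0.48 at Epha4, -0.10 at Epha5, -0.13 at Epha7 and -0.030 at Ephb2 in females and -0.042 at Epha5 for the sex difference, and for H3K9me3 -0.012 at Epha7 for the sex difference. Without the low-count filter, H3K9me3 windows numbered 871 in males (391 before), 1142 in females (636 before) and 1202 for the sex difference (784 before).

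With islands at FDR 0.01 alone, windows numbered 130 for H3K9me3 in females and 126 in males and 46 in females for H3K36me3. Regions numbered 190 (805 before) and 65 (1081 before) for H3K9me3 and 29 and 10 (321 before) for H3K36me3 in males and females, and presence calls 202 (130 before) for H3K9me3 in males and 258 (157 before) for H3K36me3 in females. For H3K9me3, Epha7 had 0.047 in males and 0.13 in females, Epha5 -0.18 in females, and the sex difference was -0.14 at Epha3, -0.40 at Epha5 and -0.55 at Ephb1. For H3K36me3, Epha3 had -0.020 in males, Epha5 -1.20, Epha7 -0.92 and Ephb2 -0.24 in females, the sex difference at Epha5 was -3.10, and Ephb1 coverage of the body minus the flanks was 0.20 points.

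With the centred ratio of ChIP to input reads, counts were 757 windows and 1519 regions for H3K9me3 in males, and 1089 windows in females and 899 for the sex difference for H3K36me3. For H3K9me3, Ephb1 had 0.055 in males, Epha5 -0.033 in females, and the sex difference was -0.042 at Epha3, -0.051 at Epha5 and -0.25 at Ephb1. For H3K36me3, Ephb1 had 0.037 in males, females had 0.0094 at Epha3, 0.046 at Epha6, -0.21 at Ephb1 and -0.17 at Ephb2, and the sex difference was 0.00027 at Epha3, -0.17 at Epha5, -0.25 at Ephb1 and -0.075 at Ephb2. With percent of the window covered in place of reads, 444 windows passed for the H3K9me3 sex difference, and 4186 in males and 1106 in females for H3K36me3. Differences in points were then 0.11 in males and 0.31 in females at Epha7, 0.011 at Ephb1 in females and 0.15 at Epha4 for the sex difference for H3K9me3, and -0.26 at Epha5 in males, -0.33 at Epha4 and -0.027 at Epha7 in females for H3K36me3.

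Over gene bodies alone, windows numbered 63 in males, 79 in females and 280 for the sex difference for H3K9me3, 178 in males and 34 in females for H3K36me3, and 7433 for the difference between marks (17932 before). For H3K9me3, Epha5 had -0.068 in males and -0.050 in females and Epha6 0.012 in males. For H3K36me3, Epha3 had -0.069 and Epha5 -0.11 in males, Epha5 -0.010 and Ephb2 -0.10 in females, the sex difference at Epha3 was 0.037, and Epha3 differed between marks by 0.14 points. With flanks of 50 kb, Epha5 body minus flanks was 0.059 points for H3K9me3 and 1.5 for H3K36me3.

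Replicate numbers did not pair water and ethanol pools: same-numbered pools correlated over 0.1 in 0 of 5 pairs in males for both marks and in 1 of 5 for H3K9me3 and 0 of 5 for H3K36me3 in females. With the replicate number as a block, windows numbered 516 for the H3K9me3 sex difference and 1189 in males and 85 in females for H3K36me3. In the same block fit Epha7 had 0.017 for H3K9me3 in females, and for H3K36me3 Epha4 had 0.10 in males and -0.020 in females and Ephb2 -0.16 in females. Epha6 for H3K9me3 in females and Epha6 and Epha7 for H3K36me3 in males did not pass with the block, nor did the sex difference of Epha6 for either mark, and Epha3 for H3K9me3 in females did. Without male ethanol pools 4 and 6, a setting chosen after the data were seen, 1334 windows passed for H3K36me3 in males and Epha3 had -0.025.

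With 1 library left out, H3K9me3 windows ranged from 348 to 630 in males (most without ethanol pool 1) and from 474 to 1133 in females (over 1.5 times more without water pool 3 or 5). H3K36me3 windows ranged from 1283 to 3841 in males (beyond 1.5 times without water pool 1 or ethanol pool 3 or 5), from 153 to 472 in females (water pool 1, 2 or 3) and from 457 to 1589 for the sex difference (male ethanol pool 5, female water pool 2 or female ethanol pool 2). In males, H3K9me3 ranged from -0.046 to 0.065 at Epha3, -0.34 to 0.042 at Epha4, -0.0070 to 0.19 at Epha5, -0.071 to 0.0070 at Epha6 and -0.069 to 0.032 at Epha7. In females it ranged from -0.072 to 0.058 at Epha7 and -0.40 to 0.00031 at Ephb1. Its sex difference ranged from -0.28 to 0.11 at Epha4, -0.079 to 0.12 at Epha5, -0.066 to 0.062 at Epha7 and -0.037 to 0.52 at Ephb1. H3K36me3 ranged from -0.015 to 0.29 at Epha3 in males, and in females from -0.27 to 0.28 at Epha4, -0.22 to 0.10 at Epha6, -0.0095 to 0.28 at Epha7 and -0.35 to 0.47 at Ephb2. Its sex difference at Epha5 ranged from -0.12 to 0.22.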
